A study of Homo sapiens with 6 samples.

Results

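The genes of the translation initiation factors and of the aminoacyl-tRNA synthetases were examined for open chromatin at their starts in GM12878 cells, a human lymphoblastoid line that represents 1 cell line. Members were the autosomal protein-coding genes of the hg19 GENCODE annotation whose symbol is EIF followed by a digit, or 1 or 2 letters followed by ARS1, ARS2 or ARS. EPRS1 was included because the rule names it. The rule gave 88 genes of 19229, with 53 EIF genes and 35 tRNA synthetase genes, and it used no measured value. All libraries came from this line, and the labels give them all fixation in 1% paraformaldehyde, lysis with 0.05% Igepal, transposition with Tn5 for 30 min, a quench with 40 mM EDTA and reverse crosslinking at 65 °C. The methods give that lysis and quench for the unpurified protocol only, so the protocols may differ in more than buffer and purification, and these steps cannot be told apart. The 6 bulk ATAC-seq libraries fall into 3 reverse crosslinking protocols of 2 replicates each. One protocol used the old buffer, with SDS, followed by purification of the DNA. The others used a new buffer free of SDS, with the DNA purified in one and carried straight into PCR in the other, the bulk version of Pi-ATAC. These are called the old buffer, the purified new buffer and the unpurified new buffer. The design asks whether the new buffer and the omitted purification change what is read from open chromatin. Nothing in the labels says that replicates were separate cultures, so p-values measure only the spread between these libraries.

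Translation initiation brings the small ribosomal subunit, the initiator tRNA and the capped mRNA together. eIF2 delivers the initiator tRNA, eIF2B recharges eIF2 with GTP, eIF3 holds the preinitiation complex together, and eIF4E, eIF4G and eIF4A bind and unwind the 5′ end of the mRNA. Aminoacyl-tRNA synthetases load each amino acid on its tRNA, with separate enzymes for the cytosol and the mitochondrion in most cases. Both gene classes serve every growing cell, and stress that phosphorylates eIF2 raises several synthetase genes through the transcription factor ATF4.

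A peak is a stretch in which transposed fragments exceeded the local background in 1 library. For each gene the strongest peak overlapping the 1 kb on either side of its start was taken. Its percentile is its place by −log10 q among all peaks of that library, where 100 is the strongest. The libraries held 30136 to 38023 peaks, with a median of 20 to 22 reads at the summit and a lowest local background of 1.51 to 1.86 reads. Replicate 2 of the purified new buffer held the fewest. Among B cell markers, MS4A1 and EBF1 had a peak in all 6 libraries, CD79A in 4, and CD79B and PAX5 in 1 each, while POU2AF1 had one in all 6 only at its canonical start, the start of the transcript that the annotation marks as representative, and CD22 in none. None of 5 epithelial markers had a peak, 1 of 5 myeloid markers, CD14, had one in 4 libraries, and TCF7 was the single T cell marker of 7 with a peak. In bulk libraries a start open in fewer cells and a start less open in each cell cannot be told apart.

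Peaks lay at the starts of most members. With the old buffer 75 of the 88 genes (85.2%) had a peak in replicate 1 and 75 in replicate 2, where 48.2% and 46.6% of all 19229 genes had one. With the purified new buffer the members numbered 74 (84.1%) and 72 (81.8%), beside 50% and 47% of all genes. With the unpurified new buffer they numbered 75 (85.2%) and 76 (86.4%), beside 49.7% and 49.5%. All 6 libraries called 70 members (79.5%) against a background of 41%, and no library called 10 members (11.4%) against 44.6%. The remaining 8 members were called by 1 to 5 libraries. Across the 6 libraries the share was 84.7% ± 1.57 for members and 48.5% ± 1.48 for all genes (SD, n = 6). The 35 synthetase genes were called at 90% ± 2.39 and the 53 EIF genes at 81.1% ± 1.69. The levels of the transcripts were not measured here, and no list of genes matched on expression was compared.

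Peak coverage was highest near the start. A peak covered the start of 69.3% ± 3.52 of members and of 39.4% ± 1.38 of all genes (SD, n = 6). At 500 bp into the gene the values were 32.2% ± 3.19 and 12.4% ± 1.36, and at 500 bp upstream they were 13.6% ± 1.61 and 7.94% ± 0.900. Both profiles reached farther into the gene than upstream of it.

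**Figure D1:**
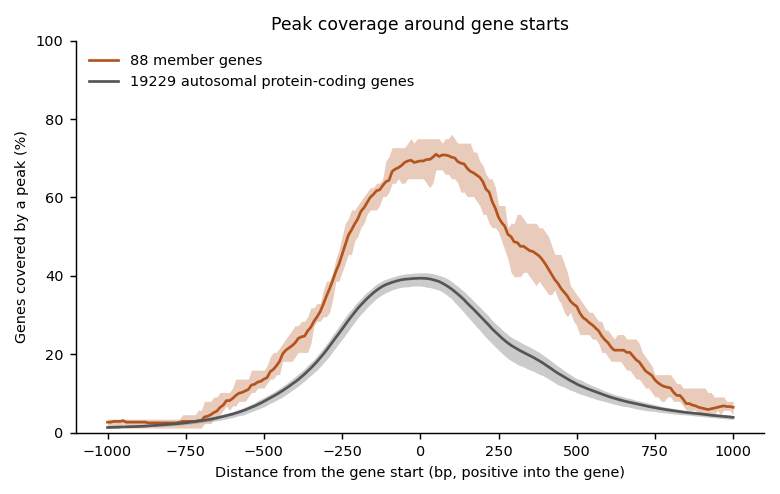
Percent of genes covered by a peak (vertical axis) against distance from the gene start in bp (horizontal axis, positive into the gene), for the 88 members and all 19229 genes. Lines are means and bands the range over the 6 libraries, and the member line peaks near the start, where it averages 69.3%, above the 39.4% of all genes.

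Where a peak was called, members had values near those of other called genes. Over the 70 members called in all libraries the median of the mean percentile was 80.1, with quartiles of 66.2 and 89.5, against 78.7 over the 7889 genes called in all. Their median width was 681 bp, with quartiles of 534 and 864 bp, against 665 bp. A mean percentile of at least 90 was reached by 15 of the 70 (21.4%), against 27.3% of the 7889 genes. A mean width of at least 1 kb was reached by 6 (8.57%), against 9.15% of those genes. The 2 classes differed in level, since the median percentile of a library ranged from 76.1 to 80.5 for EIF genes and from 85.2 to 88.0 for synthetase genes, without overlap over the 6 libraries. The same libraries gave both values, so the non-overlap was not tested further.

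The ternary complex genes differed widely from each other. Of 5 genes, 4 had a peak in every library and EIF2S3B, a copy of the X-linked gene of the gamma subunit, had none. EIF2S1, which encodes the alpha subunit whose phosphorylation slows initiation, stood at percentiles of 82.3 and 84.9 with the old buffer, 93.1 and 94.2 with the purified new buffer, and 94.6 and 91.1 with the unpurified new buffer. Both old buffer libraries lay below the 4 others. The EIF2S1 start lies 63 bp from that of ATP6V1D on the other strand, and the summit lay at a median of -399 bp, negative upstream. The peak was not divided between these genes. EIF2S2, the beta subunit, stood at 86.6 and 83.5 with the old buffer, 70.4 and 75.6 with the purified new buffer, and 76.4 and 85.2 with the unpurified new buffer. EIF2A, which can deliver initiator tRNA outside the canonical path, was highest at 97.6 ± 1.40 (SD, n = 6), and its peak of 1077 ± 115 bp was among the 5 widest. EIF2D, another factor that delivers tRNA without eIF2, was lowest at 45.2 ± 16.6, with a narrow peak of 354 ± 74.4 bp. The values of EIF2D were 32.9 and 38.4 with the old buffer, 62.4 and 31.9 with the purified new buffer, and 70.00 and 35.7 with the unpurified new buffer, so that replicates of 1 protocol lay as far apart as protocols did.

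All 5 genes of eIF2B, the exchange factor that restores active eIF2, had a peak in every library. EIF2B4 was highest at 81.7 ± 3.88. EIF2B5, the catalytic subunit, had the lowest and narrowest peak of all 70 members, at 32.9 ± 21.8 and 304 ± 81.7 bp. Its percentiles were 25.7 and 17.2 with the old buffer, 27.6 and 12.2 with the purified new buffer, and 71.9 and 42.6 with the unpurified new buffer. Both unpurified libraries lay above the other 4, yet they differed from each other by more than the others did. EIF2B3 went the other way, with 77.2 and 72.6 with the old buffer, 68.2 and 58.5 with the purified new buffer, and 52.5 and 41.1 with the unpurified new buffer, and EIF2B2 read 81.9 and 92.3 with the old buffer, 66.3 and 68.00 with the purified new buffer, and 82.9 and 84.6 with the unpurified new buffer, where only the purified new buffer lay low.

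The 4 kinases that phosphorylate eIF2 were called in every library. EIF2AK1, which senses heme loss, stood at 79.8 ± 10.02, and EIF2AK4, which senses uncharged tRNA, at 71.8 ± 9.42. EIF2AK2, the kinase activated by double-stranded RNA, was lowest at 35.2 ± 19.6, with a narrow peak of 414 ± 114 bp. Its percentiles were 66.6 and 8.44 with the old buffer, 37.7 and 27.1 with the purified new buffer, and 44.4 and 27.2 with the unpurified new buffer. Replicates of the old buffer spanned this whole range. EIF2AK3, the kinase of the endoplasmic reticulum, read 99.7 and 99.4 with the old buffer, 99.5 and 99.7 with the purified new buffer, and 99.9 and 99.3 with the unpurified new buffer, but the gene start in the annotation lies 155 bp from the start of RPIA and 64054 bp upstream of its canonical start. At the canonical start EIF2AK3 still stood at 99.02 ± 0.619.

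The eIF3 subunits held 4 of the 10 members without a peak. Of 14 genes, 8 were called in all libraries, and EIF3C, EIF3CL, EIF3F and EIF3I in none. EIF3G had a peak in 3 libraries at percentiles of 0.530 to 28.5, with both purified new buffer libraries lacking it. EIF3L had one in 1 replicate of each protocol, at 10.2 to 21.8. EIF3E was highest at 98.7 ± 0.601 and EIF3H followed at 97.9 ± 0.953, but these gene starts lie 105 bp from EMC2 and 420 bp from UTP23, and 194779 and 11102 bp upstream of the canonical starts, where the percentiles were 88.3 ± 2.74 and 75.8 ± 8.50. EIF3B, a core scaffold subunit, was the lowest of those called in all libraries at 39.8 ± 8.19, and its summit lay at a median of 588.5 bp inside the gene. The EIF3B canonical start lies 741 bp downstream of the gene start, and the median offset from it was -152.5 bp, negative upstream. EIF3C and EIF3CL are near-identical copies: 2001 bp around the EIF3C canonical start match the EIF3CL start at 99.9%. The methods remove reads of low mapping quality, so the empty windows of both genes cannot be read as closed.

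The cap-binding group was called in all libraries at 10 of 12 genes. EIF4E, whose protein binds the cap, had the widest peak of all members, with widths in bp of 1448 and 986 with the old buffer, 1581 and 1253 with the purified new buffer, and 1457 and 1034 with the unpurified new buffer. The lowest of these came from replicate 2 of the old and of the unpurified protocol, and its percentile was 88.5 ± 6.21. EIF4G2, an eIF4G relative without the eIF4E site, was highest at 98.03 ± 0.651 and EIF4H, a helicase cofactor, lowest at 48.2 ± 17.7. EIF4H read 50.1 and 21.8 with the old buffer, 33.9 and 52.2 with the purified new buffer, and 70.2 and 60.7 with the unpurified new buffer, with both unpurified libraries above the rest. EIF4G3, another form of the eIF4G scaffold, read 74.1 and 76.2 with the old buffer, 71.7 and 58.8 with the purified new buffer, and 53.6 and 44.7 with the unpurified new buffer, where the unpurified libraries lay lowest. EIF4A3, a helicase of the exon junction complex, likewise had both unpurified libraries below both purified new buffer ones, at 60.1 and 54.02 with the old buffer, 65.8 and 69.7 with the purified new buffer, and 60.6 and 32.4 with the unpurified new buffer. EIF4E1B, a form known from oocytes, and EIF4E3 had no peak in any library at the gene start or the canonical start. The scaffold EIF4G1, named for its spread after its values were seen, read 78.6 and 0.790 with the old buffer, 71.5 and 77.5 with the purified new buffer, and 81.5 and 61.2 with the unpurified new buffer, so 1 library held only a 200 bp peak of 12 reads.

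The 4E-BPs, which keep eIF4E from eIF4G, had mid-range peaks. EIF4EBP1 stood at 69.1 ± 6.56 and EIF4EBP3 at 66.1 ± 10.1. EIF4EBP2 was called in 5 libraries, with percentiles of 62.4 and 45.05 with the old buffer, 44.1 and no peak with the purified new buffer, and 78.9 and 78.1 with the unpurified new buffer. Its unpurified libraries were highest. The transporter gene EIF4ENIF1 was called in all 6 at its gene start and in 4 at its canonical start 6266 bp downstream, where both old buffer libraries had none.

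Genes of start codon selection were all called in every library. EIF1B, a close relative of the scanning factor EIF1, stood at 99.1 and 99.05 with the old buffer, 99.8 and 99.4 with the purified new buffer, and 96.1 and 98.3 with the unpurified new buffer, high throughout. EIF1AD, named for its eIF1A-like domain, was the lowest at 23.8 and 24.8 with the old buffer, 53.2 and 62.5 with the purified new buffer, and 39.1 and 53.00 with the unpurified new buffer, where the purified new buffer exceeded the old buffer in all comparisons of libraries. EIF5, which triggers GTP hydrolysis by eIF2, had its summit 597 bp inside the gene by median. The EIF5 canonical start lies 693 bp downstream of the gene start, and the median offset from it was -96 bp, negative upstream. EIF5B, the GTPase that joins the subunits, had its summit 888 bp upstream in the median. Its offsets in bp, negative upstream, were -881 and -95 with the old buffer, -1005 and -890 with the purified new buffer, and -886 and -1003 with the unpurified new buffer. Its replicate 2 with the old buffer took another summit close to the start. In the last initiation group EIF5A, a factor that carries the hypusine modification, stood at 78.7 ± 7.92. EIF5A2, its paralog, read 49.2 and 1.80 with the old buffer, 52.2 and 53.03 with the purified new buffer, and 37.9 and 49.2 with the unpurified new buffer, with 1 old buffer library near the bottom. EIF6, which keeps the large ribosomal subunit apart, was called in 1 library only, the unpurified replicate 2, at 23.5. EIF5AL1 had none, and its window matches a copy on chromosome 10 at 98.7%.

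**Figure D2:**
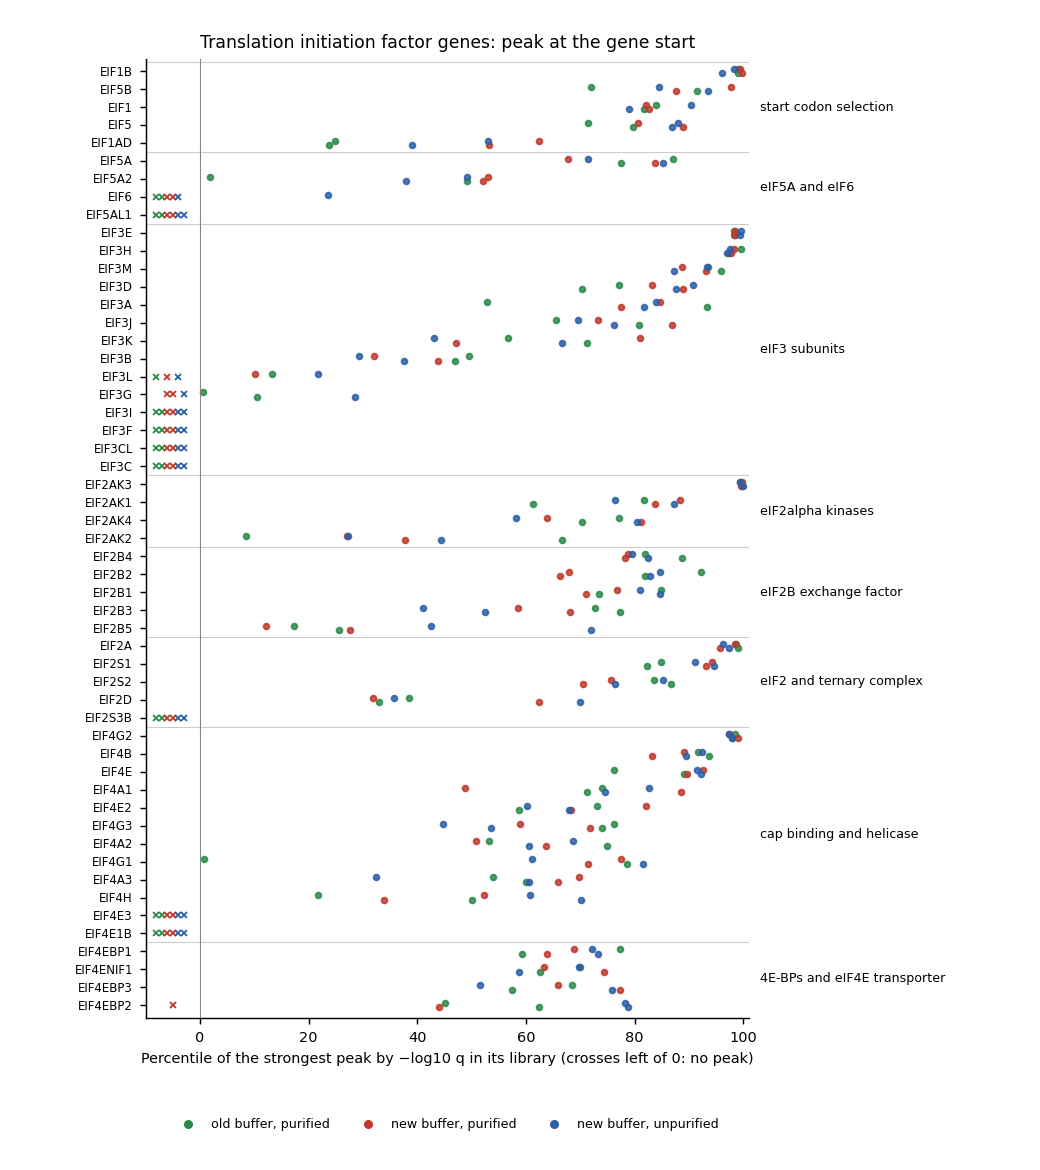
Percentile of the strongest peak by −log10 q among all peaks of its library (horizontal axis) for each of 53 EIF genes, grouped by role, with 1 point per library coloured by protocol and crosses left of 0 where the library had no peak. EIF1B, EIF4G2, EIF2A, EIF3E, EIF3H and EIF2AK3 cluster at the right edge, and EIF2B5, EIF2AK2 and EIF4G1 spread widely over libraries.

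Among 16 cytosolic synthetase genes 12 were called in every library. LARS1, the leucine enzyme, was the strongest of all members at 99.7 and 99.9 with the old buffer, 99.9 and 99.2 with the purified new buffer, and 99.9 and 99.8 with the unpurified new buffer, and it had 84 to 121 reads at the summit. EPRS1, the fused glutamate and proline enzyme, stood at 99.1 ± 0.481 and TARS1, the threonine enzyme, at 98.1 ± 1.21, the latter 2 named after their values were seen. These 3 genes lay above the 90th percentile in every library. SARS1, the serine enzyme, was the lowest of those called in all, at 60.6 ± 15.8. CARS1, the cysteine enzyme, was called in 5 libraries at 46.9 and 34.1 with the old buffer, 76.5 and no peak with the purified new buffer, and 40.7 and 17.3 with the unpurified new buffer. QARS1, the glutamine enzyme, was called in the 4 new buffer libraries and in neither old buffer library, at 13 to 19 reads per summit and percentiles of 4.48 to 43.2. VARS1, the valine enzyme, was called in 3 libraries at 17.9 to 28.9. QARS1 and VARS1 lay below the median peak of the library wherever they were called. NARS1, the asparagine enzyme, named after its values were seen, read 76.3 and 59.9 with the old buffer, 89.02 and 81.6 with the purified new buffer, and 94.2 and 91.7 with the unpurified new buffer, with the 4 new buffer libraries above both old buffer ones. YARS1, the tyrosine enzyme, had its summit 537 bp inside the gene by median. The YARS1 canonical start lies 673 bp downstream of the gene start, and the median offset from it was -136 bp, negative upstream.

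MARS1, the methionine enzyme, and GARS1, the glycine enzyme of cytosol and mitochondrion, had no peak at the gene start. At the canonical starts, 12623 and 14345 bp downstream, each had a peak in all 6 libraries. MARS1 read 60.03 and 85.8 with the old buffer, 71.3 and 67.1 with the purified new buffer, and 54.1 and 41.5 with the unpurified new buffer, and GARS1 read 66.6 and 65.1 with the old buffer, 75.5 and 86.9 with the purified new buffer, and 82.3 and 84.9 with the unpurified new buffer. The other enzyme used in both compartments, KARS1 for lysine, stood at 93.7 ± 3.17, with its summit at a median of 888.5 bp inside the gene. The KARS1 canonical start lies 978 bp downstream of the gene start. From the canonical start the median summit offset was -89.5 bp, negative upstream. TERF2IP starts on the other strand 870 bp from the KARS1 gene start.

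Mitochondrial synthetase genes were called in all libraries at 16 of 17. WARS2, the tryptophan enzyme, was highest at 95.4 ± 2.31 and VARS2, the valine enzyme, lowest at 45.2 ± 17.2. VARS2 read 32.1 and 21.4 with the old buffer, 37.6 and 58.04 with the purified new buffer, and 61.02 and 61.3 with the unpurified new buffer, with both unpurified libraries above the other 4. The widths in bp of YARS2, the tyrosine enzyme, were 806 and 843 with the old buffer, 1443 and 1466 with the purified new buffer, and 1493 and 1472 with the unpurified new buffer. The 4 new buffer libraries gave a peak more than 500 bp wider than either old buffer library. CARS2, the cysteine enzyme, had widths in bp of 510 and 572 with the old buffer, 1399 and 1384 with the purified new buffer, and 1037 and 1268 with the unpurified new buffer, again with the 4 above both, and its window also holds the start of ING1. This gene start lies 7487 bp upstream of the CARS2 canonical start. At the canonical start the widths in bp were 820 and 637 with the old buffer and 830 and 732 with the purified new buffer. With the unpurified new buffer they were 726 and 735, so the protocols overlapped there. FARS2, the phenylalanine enzyme, was wide in every library at 1247 ± 48.5 bp, and its gene start lies 94 bp from that of LYRM4 on the other strand. TARS2, the threonine enzyme, was narrow at 402 ± 87.5 bp, and VARS2 narrower still at 368 ± 98.9 bp. AARS2, the alanine enzyme, was called at 18.8 and 7.19 with the old buffer, at 73.3 in replicate 1 of the purified new buffer, and in no unpurified library. The histidine genes HARS1 and HARS2 lie on opposite strands with 107 bp between their starts and shared 1 peak in all 6 libraries, at percentiles of 92.9 and 92.6 with the old buffer, 88.4 and 85.2 with the purified new buffer, and 88.1 and 86.97 with the unpurified new buffer.

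**Figure D3:**
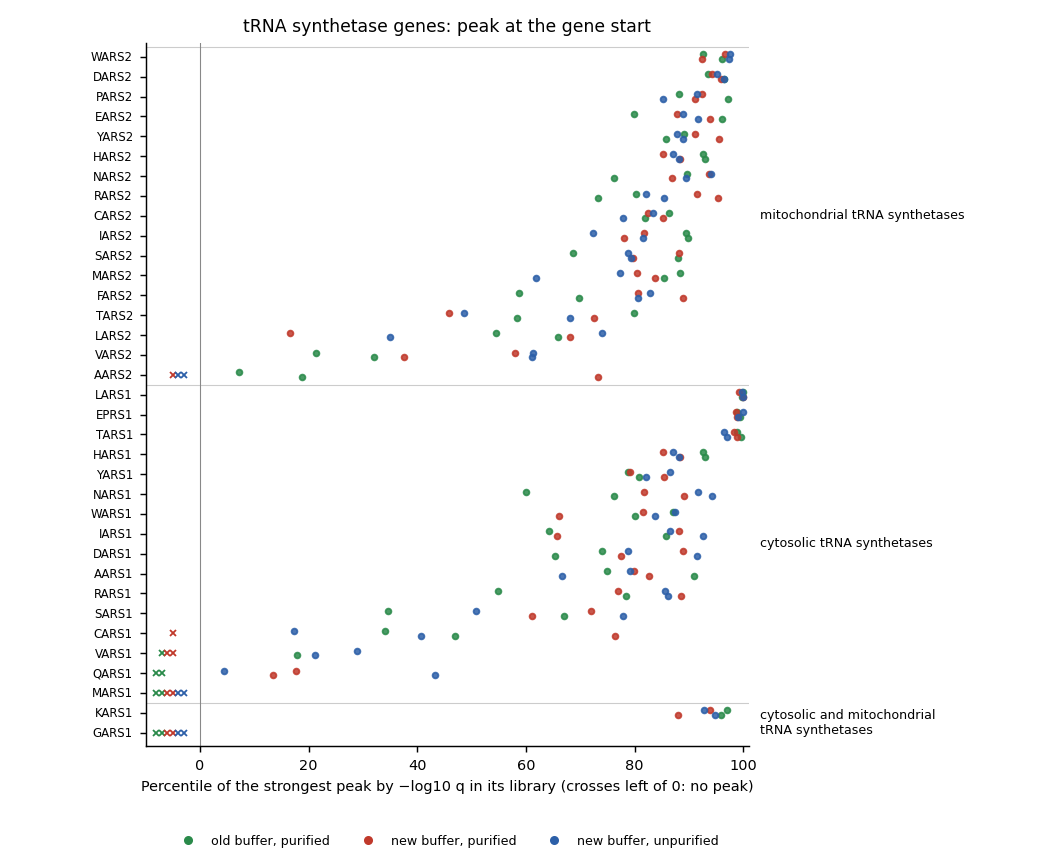
Percentile of the strongest peak by −log10 q among all peaks of its library (horizontal axis) for each of 35 tRNA synthetase genes, grouped by compartment, with 1 point per library coloured by protocol and crosses left of 0 where the library had no peak. LARS1, EPRS1 and TARS1 lie near 100, MARS1 and GARS1 show crosses only, and HARS1 and HARS2 have the same points because they share a peak.

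Gene starts in the annotation are the outermost starts of any transcript, and for 12 of 88 members (13.6%) they lie more than 1 kb from the canonical start, against 16.6% of all genes. With canonical starts, an alternative chosen after seeing the data, 72 of 88 members (81.8%) were called in all 6 libraries, against 43.5% of 18893 genes, and 6 members (6.82%) in none, against 41.5%. The 6 were EIF2S3B, EIF3C, EIF3CL, EIF4E1B, EIF4E3 and EIF5AL1, and 3 of these are the genes with a near-identical copy. EIF3F, a regulatory eIF3 subunit, went from none to all 6 with 94.6 ± 1.87, and EIF3I, another eIF3 subunit, from none to 5 libraries with 29.2 ± 18.2 (SD, n = 5). The EIF4E3 canonical window of 300 bases was 88.0% G and C, where the median over members was 66.2%. As a group the 6 did not stand apart, with a median of 65.7%, the same as over the 72 called in all 6 libraries. Members also had a protein-coding start on the other strand within 1 kb in 24 cases (27.3%), against 13.5% of all genes. Each such window can hold the peak of its neighbour, and the peaks were not divided between them. By the median summit position over the 6 libraries, 34 of the 70 (48.6%) lay upstream of the gene start, against 58.4% of all genes called in every library. Within 100 bp of it lay 36 (51.4%), against 51.6%. These counts use the outermost start, so EIF3B, EIF5, YARS1 and KARS1 count as inside the gene. Their summits lay upstream of the canonical start, from which positions were not counted over all genes.

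Promoter letters were searched in 300 bases around the summit at the canonical start, on both strands, for the 72 members and the 8220 genes called there in all libraries. The C/EBP-ATF4 response element, TGATGNAA, was found in 8 members (11.1%) and in 1.12% of all windows. Of 15 cytosolic synthetase genes, including GARS1 and KARS1, 6 held it (40%), against 1 of 16 mitochondrial ones, FARS2, and 1 of 41 EIF genes, EIF2S2. These windows are the accessible stretches that hold the element, printed 5′ to 3′ on the strand of the gene in hg19, with the element in capitals in either orientation. The stretches of AARS1 (chr16:70323581-70323616), IARS1 (chr9:95055973-95056032), NARS1 (chr18:55289039-55289098) and EIF2S2 (chr20:32700019-32700078) are on the minus strand, and those of GARS1 (chr7:30634437-30634496), MARS1 (chr12:57881802-57881861) and TARS1 (chr5:33441041-33441100) on the plus strand.
AARS1: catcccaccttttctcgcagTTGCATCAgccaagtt
GARS1: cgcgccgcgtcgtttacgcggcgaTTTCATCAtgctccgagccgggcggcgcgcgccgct
IARS1: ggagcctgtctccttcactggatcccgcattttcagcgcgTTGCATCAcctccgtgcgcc
MARS1: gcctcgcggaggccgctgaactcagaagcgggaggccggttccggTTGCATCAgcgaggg
NARS1: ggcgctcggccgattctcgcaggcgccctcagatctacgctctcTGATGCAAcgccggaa
TARS1: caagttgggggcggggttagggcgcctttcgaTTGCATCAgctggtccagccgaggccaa
EIF2S2: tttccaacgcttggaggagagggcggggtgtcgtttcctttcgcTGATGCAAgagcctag

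N stands for any base and the search fixed all other letters, so matches could differ at that base only. GARS1 had TTTCATCA and the others TTGCATCA or its reverse complement TGATGCAA. Measured to the middle of the element, the distance from the canonical start was -29 bp in GARS1, -10 in IARS1, 0 in MARS1, 6 in TARS1, 17 in NARS1 and 18 in EIF2S2, and farther upstream -184 in AARS1 and -362 in FARS2. The element thus lay across or beside the start in 6 of the 8 genes. In RefSeq promoters of GRCh38.p14, which run 250 bases before to 50 after the start and matched 72 of 88 members, 6 of 14 cytosolic synthetase genes held it (AARS1, CARS1, IARS1, MARS1, NARS1 and TARS1), against 2.56% of 14591 genes. Of the mitochondrial synthetase genes 1 of 14 held it there, YARS2, and of the EIF genes 0 of 44. GARS1 and FARS2, which held it in the summit windows, were in this set but did not hold it there. EIF2S2 was listed there for none of the motifs searched, so it may be a member without a matched promoter. No stress treatment is described for these cells, and a match is not a bound site.

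Other motifs stood closer to their background by ratio. The ETS site CCGGAAG was in 25 of 72 members (34.7%) and 22.8% of all windows, and the GC box GGGGCGGGG in 26 (36.1%) and 32.5%. The E-box CACGTG was in 11 of 41 EIF genes (26.8%), among them EIF4E, EIF4G1, EIF4A3 and EIF2AK2, in 3 of 31 synthetase genes (9.68%) and in 11.4% of all windows. The YY1 site AAGATGGC was in 7 members (9.72%) and 5.85% of all windows, the NRF1 site GCGCATGCG in 4 (5.56%) and 4.88%, the CCAAT box CCAAT in 35 (48.6%) and 40.5%, and the ZNF143 core ACTACAA in 5 (6.94%) and 4.12%. The CRE TGACGTCA, which contains the CRE core TGACG, was in 2 members (2.78%) and in 4.11% of all windows, while the core, with or without the rest, was in 30 (41.7%) and 39.0%. TATAAA was in 2 members (2.78%) and 2.86%, and the NF-kB site GGGACTTTC in 0 of 72 and 0.389%. The windows of members had a median of 65.2% G and C, against 68.0% over all genes.

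**Figure D4:**
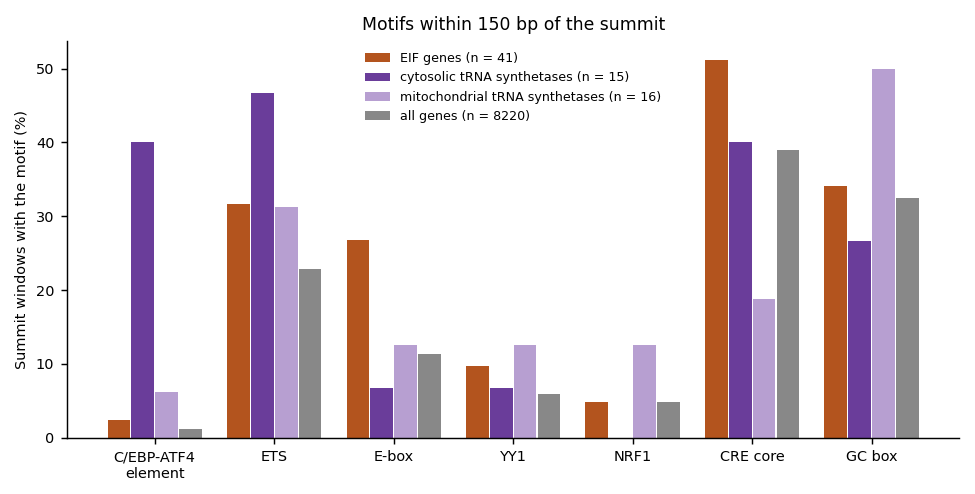
Percent of 300 bp summit windows that hold each motif (vertical axis, from 0) in 41 EIF genes, 15 cytosolic and 16 mitochondrial tRNA synthetase genes and all 8220 genes called in every library at the canonical start. The C/EBP-ATF4 element stands at 40% in cytosolic synthetase genes and at 1.12% over all genes, and the E-box is highest in EIF genes at 26.8%.

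Stretches of 2 promoters show how such letters, in capitals, lie in a shared and in the widest peak. HARS2 (chr5:140070932-140071066, plus strand, shared with HARS1) has 2 ETS sites, and EIF4E (chr4:99850255-99850379, minus strand) has an E-box and the YY1 site. The EIF4E stretch also holds a CCAAT box and a CRE core, which are not marked apart from the bases the core shares with the E-box.
HARS2: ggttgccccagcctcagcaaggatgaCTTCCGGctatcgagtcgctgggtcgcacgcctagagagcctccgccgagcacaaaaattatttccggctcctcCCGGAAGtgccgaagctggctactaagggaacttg
EIF4E: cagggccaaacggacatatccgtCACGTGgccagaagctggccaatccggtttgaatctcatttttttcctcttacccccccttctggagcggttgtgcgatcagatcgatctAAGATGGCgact

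Protocol means of the members lay close together in share called and further apart in width. The share called was 85.2% ± 0 with the old buffer, 83.0% ± 1.61 with the purified and 85.8% ± 0.804 with the unpurified new buffer (SD, n = 2), and for all genes 47.4% ± 1.12, 48.5% ± 2.15 and 49.6% ± 0.173. Width, percentile and summit reads were taken over genes called in all 6 libraries, 70 members and 7889 of all genes. Median width was 635 ± 36.4, 703 ± 67.5 and 729 ± 37.8 bp, beside 623 ± 36.8, 681 ± 39.6 and 698 ± 14.1 bp for these 7889 genes. Median percentile was 79.2 ± 1.67, 82.5 ± 1.34 and 82.9 ± 0.285, beside 78.97 ± 1.40, 80.7 ± 2.25 and 81.8 ± 0.244. Both new buffer protocols lay above the old buffer in width and percentile for members and for the 7889 genes. In share called, the purified new buffer lay below the old buffer for members (-2.27 percentage points) and above it for all genes, and the difference of the members turned to 2.27 points when every library was held to an equal number of peaks. Summit reads divided by the lowest background were 20.5 ± 0.631, 23.7 ± 1.999 and 22.0 ± 1.01. The exact two-sided permutation test of 2 libraries against 2 cannot give a p below 0.33. The difference in width of the unpurified new buffer from the old buffer was 94.5 bp (exact permutation p = 0.33, adjusted 0.571), with both libraries above both. Over the 12 differences, in exact permutation tests, the adjusted p by the Benjamini-Hochberg method ranged from 0.571 to 1, and no difference could pass a threshold at this size.

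**Figure D5:**
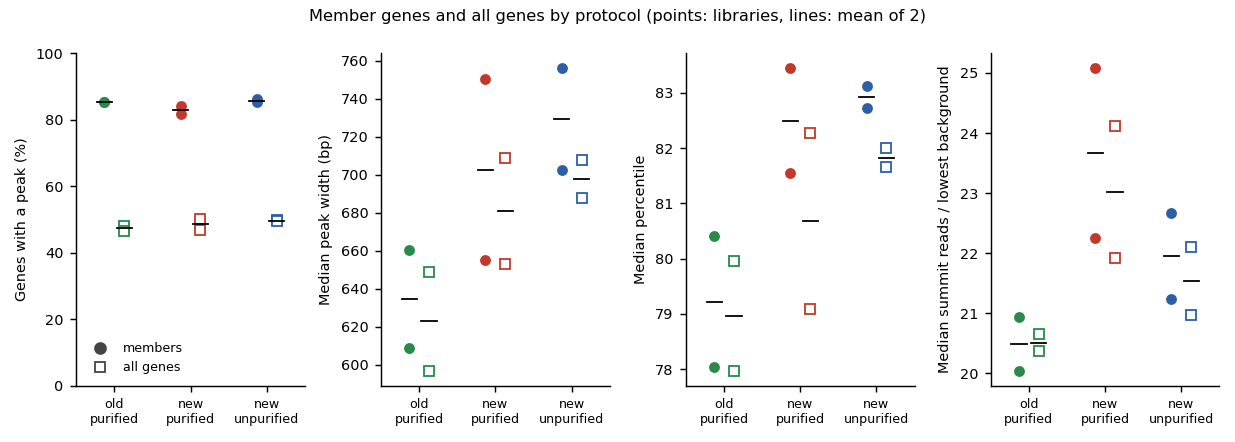
Percent of genes with a peak, median peak width in bp, median percentile and median summit reads divided by the lowest background (vertical axes, the last 3 not from 0), by protocol, for members (filled) and all genes (open). The percent is over 88 members and 19229 genes, and the last 3 over the 70 and 7889 called in all 6 libraries. Points are libraries and lines the mean of 2, and the mean width of members is 635 bp with the old buffer and 729 bp with the unpurified new buffer, beside 623 and 698 bp for all genes.

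Member by member, the protocols separated in both directions. In percentile, 16 of 70 members (22.9%) had both libraries of the purified new buffer higher than both of the old buffer. Of the 7889 genes called in all libraries 21.2% did. In the other direction 16 members (22.9%) had them lower, where 11.9% of those genes did. Both unpurified libraries lay above the old buffer for 18 (25.7%) against 25.4%, and below for 12 (17.1%) against 11%. Between the new buffer protocols the unpurified libraries lay above for 14 (20%) against 18.3% and below for 14 (20%) against 14.5%. The largest shifts of the purified new buffer against the old buffer were +33.6 percentile points at EIF1AD and +27.1 at EIF5A2 upward, and -19.9 at EIF2B2 and -12.1 at EIF2S2 downward. The unpurified new buffer against the old one gave +35.8 at EIF2B5, +34.4 at VARS2, -28.2 at EIF2B3 and -26.0 at EIF4G3. Against the purified new buffer it gave +37.3 at EIF2B5, +22.4 at EIF4H, -21.2 at EIF4A3 and -16.6 at EIF2B3. No single gene can pass a test with 2 libraries a protocol. The median SD of a member's percentile over the 6 libraries was 7.87, beside 7.35 for all genes called in every library.

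Other genes of protein synthesis, from a list of 60 set apart from the members, were called in all 6 libraries in 43 cases and in none in 8. At the canonical start these counts were 48 and 3, and EEF1A1, EEF1D, HBS1L and ATF3 went from none to all 6. Of all genes, 41% were called in all 6 libraries and 44.6% in none, and at the canonical start 43.5% and 41.5%. Median percentile of the 43 was 82.9 and median width 716 bp, against 78.7 and 665 bp over the 7889 genes called in all. The scaffolds of the synthetase complex AIMP1, AIMP2 and EEF1E1 stood at 93.8, 92.3 and 95.9. Synthetases outside the name rule included TARS3 at 92.0 and FARSB at 85.1, both called in all 6, and FARSA, called in 1 library. Elongation genes were called in all libraries in 4 of 10 cases and in none in 4, and at the canonical start in 6 and 2. Their counts at the gene start are close to the shares over all genes. Of 11 genes of the response to eIF2 phosphorylation 6 were called in all, among them ASNS, which makes asparagine, at 96.0, DDIT3 at 82.6 and ATF4 itself at 56.7. PPP1R15A, the stress-induced phosphatase subunit, was called in 5 libraries at 26.9, and PPP1R15B, its constitutive counterpart, in all 6 at 83.3. Mitochondrial factors were called in all libraries in 11 of 12 cases, beside 16 of 17 for the mitochondrial synthetases.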

How the data were processed

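The labels give 6 libraries from bulk ATAC-seq on fixed GM12878, 2 per protocol, each with its own list of narrow peaks. The authors mapped reads to hg19 with Bowtie2 2.1.0, removed low-quality, mitochondrial and, with Picard 1.79, duplicate reads, and ran MACS2 with a q threshold of 0.01. The submitters' processing notes also name DESeq. For MACS2 the version is not given in the sources used here. Although the methods describe merging reads of 1 condition before calling, 1 list per library was used. The deposited columns hold a score (the −log10 q times 10, as a whole number), the fold enrichment of the summit over local background as a ratio, and the −log10 of the summit's p-value and q-value. The authors' q-values ranked the peaks, and the deposited score was not used further.

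Gene and canonical starts came from GENCODE 44 on GRCh37, the same build as hg19. A window was 1 kb on each side, an overlap at least 1 bp. The pileup at a summit was solved from its fold enrichment and p-value, within 0.001 for 100% of peaks. The lists hold no read totals: the lowest local background served as relative depth, and the deepest library had 1.24 times that of the shallowest. Summit reads limit the precision of each peak. Protocols were compared over libraries by exact two-sided permutation tests. Near-identical copies were windows with at least 98% identity over 500 bp elsewhere by blastn 2.17.0. The scripts used Python 3.11.15, pandas 2.3.3, NumPy 2.4.6, SciPy 1.17.1 and samtools 1.23.1, and were tested on simulated data. For motifs, the window of each gene was centred on the summit in the library where its peak had the highest −log10 q.

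The members and lists were chosen with earlier results of these data known. Genes named were every member that a library did not call, the highest and lowest of each role, the 5 widest and 5 narrowest, the 2 largest shifts per pair of protocols and direction, the 5 farthest summits, members with a copy, the kinases, the eIF2 subunits and the 4E-BPs. Members shown for a motif, a neighbouring start or a shared peak were chosen after their values were seen. EPRS1 does not have the letters ARS and was kept because the rule names it. Alternatives were a stricter q, equal peak numbers, other windows and starts, other ranks, unscaled reads, no copies, a replicate block and each library left out. Some items are not reported here.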

Additional observations from a re-analysis of the deposited data

How the results depend on the processing

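Of 186 recomputed values, 6 differences between protocols turned in direction, 2 fell to 0 and 7 means over libraries moved by more than the SD between libraries. The mean share of members called, 84.7%, moved to 82.6% when peaks needed a −log10 q of 5 or more and to 82.6% with an equal number of 30136 peaks per library, and to 89.0% with every transcript start, 87.6% without members that have a near-identical copy and 88.6% with the canonical start, which was added after seeing the data. The mean percentile, 81.5, moved to 83.7 when peaks were ranked by width and to 62.8 among peaks at gene starts only. These means were recomputed for members only, without the same means over all genes. Whether the margin of members over all genes changed was not tested. The share called in the purified new buffer minus the old buffer, -2.27 percentage points, went to 0 at a −log10 q of 5 or more, to -1.14 with a 500 bp window and reversed to 2.27 with equal peak numbers. The unpurified new buffer minus the old buffer, 0.568 points, went to 3.98, 1.70 and 5.11 under the same settings, and to 1.70 with the canonical start. The unpurified minus the purified new buffer reversed to -0.255 percentile points among peaks at gene starts and to 3.25 reads with unscaled summit reads, where the unpurified new buffer minus the old buffer was 6.25 reads. When ranked by width, the purified and unpurified new buffer stood 0.363 and 1.99 percentile points above the old one. The width of the unpurified minus the purified new buffer, 26.5 bp, went to 50 bp for covered bases of the window, 7.5 bp with equal peak numbers and 15.5 bp without EPRS1. The cause was not tested.

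With each library left out in turn, the mean share lay between 84.3% and 85.2%, the mean percentile between 81.0 and 82.2, the mean width between 675.5 and 704.9 bp and the mean scaled summit reads between 21.4 and 22.4. The purified new buffer minus the old buffer lay between -3.41 and -1.14 points in share, 2.09 and 4.45 in percentile, 20.2 and 102 bp in width and 1.76 and 4.57 in scaled reads. The unpurified new buffer minus the old buffer lay between 0, without its replicate 2, and 1.14 points in share, 2.52 and 4.88 in percentile, 67.8 and 121 bp in width and 0.745 and 2.17 in scaled reads. The unpurified minus the purified new buffer lay between 1.70 and 3.98 points in share, -0.419 and 1.38 in percentile, -31 and 74.2 bp in width and -3.35 and -0.297 in scaled reads. It reversed without replicate 2 of the purified new buffer, to -31 bp and -0.419 percentile points, and without replicate 1 of the unpurified new buffer, to -0.25 bp.

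With replicates of the same number as a block the differences in share were -2.27, 0.568 and 2.84 percentage points. They equal those without the block by arithmetic, since each protocol has a replicate 1 and a replicate 2. The block differences could not change and are counted among the 186 values. The smallest exact permutation p is 0.5 with the block and 0.33 without it, so no difference could pass a test in either form. The labels do not say that a number marks a shared culture.

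EIF3G, EIF3L, EIF6, QARS1 and VARS1 had 9 to 19 reads at the summit in the libraries where they were called. The part of depth in the missing calls was not tested.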
